A study of Mus musculus with 12 samples.

Results

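The cortistatin and somatostatin system was described through 8 genes: the neuropeptides Cort and Sst, the somatostatin receptors Sstr1 to Sstr5, and the ghrelin receptor Ghsr. They were matched by symbol among the 32419 genes of the deposited tables, of which 29965 were listed under normoxia and normoglycemia (NX/NG) and 29775 after deprivation of oxygen and glucose followed by reoxygenation (OGD-R). RNA-seq was done on primary brain endothelial cells (BECs) of 8-week-old mice, whose strain is C57BL/6 in the labels and C57BL/6J in the study's methods. Cort+/+ mice carried the intact gene, and Cort-/- mice were null for it, not only in endothelium. Each replicate was a pool from 3 mice, and the cultures were enriched for endothelium over 60 h with puromycin. NX/NG cells were kept for 24 h at 21% O2 with 5.5 mM glucose. OGD-R cells spent 4 h at 1% O2 without glucose or serum and then 20 h back under NX/NG. Each environment held 3 Cort+/+ and 2 Cort-/- libraries, and 2 further Cort-/- samples were not used here. The labels name an ischemic stroke mouse model (MCAO) as disease state, whereas the study's methods describe these as cultured cells.

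Cortistatin and somatostatin are cyclic peptides cut from larger precursors, and their rings are almost the same. Both bind the somatostatin receptors, which couple to inhibitory G proteins that lower cyclic AMP, open GIRK potassium channels and engage tyrosine phosphatases. Cortistatin also binds Ghsr, the receptor of ghrelin (Ghrl). In brain, both peptides are made mainly by inhibitory interneurons.

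The stretch that codes for the ring is shown for both peptides, since the receptors bind them there. Capitals mark the codons of the Phe-Trp-Lys-Thr core that the receptors recognise. Both stretches lie in exon 2 of 2 and were read from the GENCODE M21 transcripts, 5′ to 3′ on the coding strand, at chr4:149125270-149125305 on the minus strand of GRCm38 for Cort and at chr16:23889732-23889767 on the minus strand for Sst.
Cort: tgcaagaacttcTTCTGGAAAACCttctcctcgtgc
Sst: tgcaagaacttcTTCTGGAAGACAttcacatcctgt
Over these 36 bases, 30 were identical, and 7 of the 12 codons were. No stretch of 40 bases in the transcripts of Cort or Sst occurred in those of another gene.

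The libraries held between 12386048 and 12390428 reads on genes. Multiplied by gene length, the RPKM of at least 99.996% of genes above 0 in every library came within 0.05 of a whole number of reads, which gave the read numbers used below. The 6 endothelial markers, Cldn5 and Pecam1 among them, summed to 794 to 1235 RPKM per library. The 10 neuronal markers summed to 0.547 to 1.18 RPKM, of which Reln gave 0.259 to 0.788. Of those that mark inhibitory neurons, Slc32a1 was not listed, and Npy and Pvalb had at most 1 read in a library, after OGD-R only. Gad1 had 2 to 6 reads per library under NX/NG and 2 to 5 after OGD-R, and Gad2 had 0 to 6 and 0 to 3. After OGD-R, Cort+/+ replicate 1 and Cort-/- replicate 3 stood apart in ribosomal RNA: Rn18s-rs5 took 0.0775% and 0.0951% of their reads, against 7.64% to 15.8% elsewhere. Epithelial markers were highest in Cort+/+ NX/NG replicate 2 (49.6 RPKM) and Cort-/- OGD-R replicate 1 (37.0 RPKM).

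Of the 8 genes, 6 had at least 1 read in at least 1 library, but only Sstr2 and Sstr4 had more than 3 reads in any. Sst and Sstr5 were listed in neither table, and Sstr3 and Ghsr were listed after OGD-R only, so no value is given for them elsewhere. Every listed gene had at least 1 read in some library of its table. A gene without reads therefore had no row, and Sst and Sstr5 after OGD-R may be such genes. The NX/NG table as used here may not hold every gene of the original, so nothing is said of Sst, Sstr3, Sstr5 and Ghsr under NX/NG. The 4 genes listed in both environments were Cort, Sstr1, Sstr2 and Sstr4. A limit of 0.1 RPKM in some library kept 3 genes (Cort, Sstr2, Sstr4), and a limit of 1 RPKM kept 2.

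**Figure D1:**
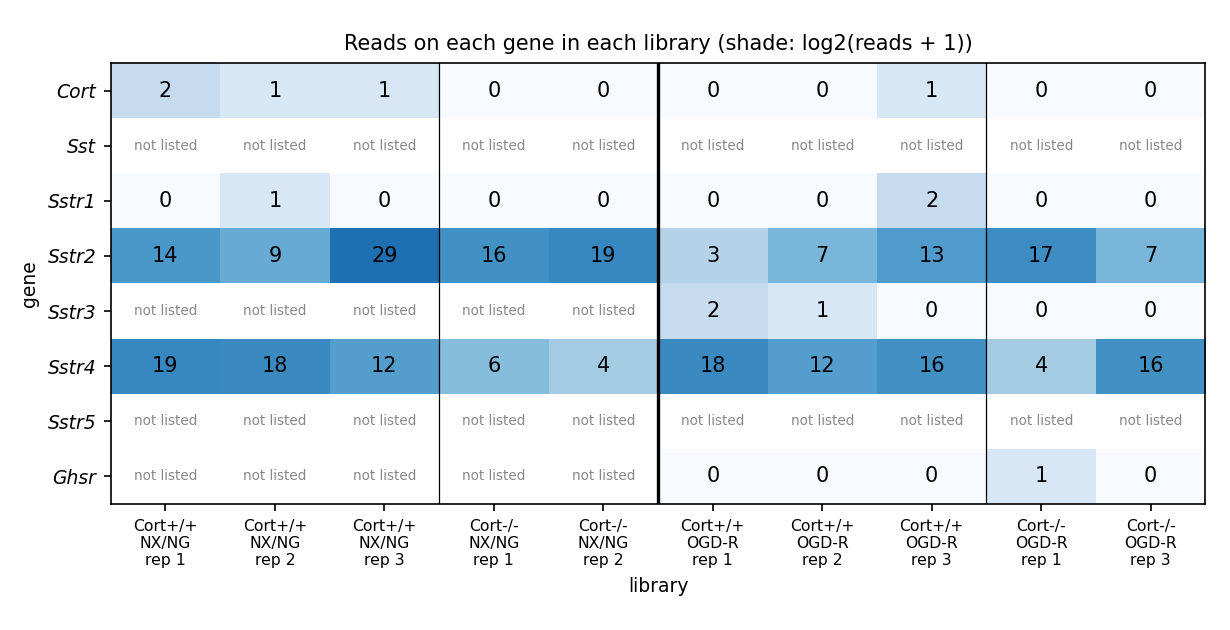
Reads on each of the 8 genes (rows) in each of the 10 libraries (columns), with the shade giving log2(reads + 1). Sstr2 and Sstr4 hold 3 to 29 reads per library, Cort, Sstr1, Sstr3 and Ghsr at most 2, and Sst and Sstr5 are not listed.

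Cort itself was at the edge of detection, and its reads were found in Cort+/+ cells alone. The gene lies at chr4:149125034-149126763 on the minus strand (GRCm38, GENCODE M21), and 1 read on its 677 exonic bases was worth between 0.108 and 0.133 RPKM. Under NX/NG, Cort+/+ replicates 1, 2 and 3 had 2, 1 and 1 reads (0.241, 0.112 and 0.128 RPKM), and the 2 Cort-/- libraries had 0. After OGD-R, Cort+/+ replicate 3 had 1 read (0.124 RPKM), and the other 4 libraries had 0. So all 3 Cort+/+ libraries were above both Cort-/- libraries under NX/NG, as were those of 12.3% of all genes in that table, whereas the genotypes overlapped after OGD-R.

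Summed over both environments, Cort took 5 of 74324474 reads in Cort+/+ cells, or 0.0673 RPM, the reads per 1000000 reads on genes (95% exact Poisson interval, 0.0218 to 0.157). Cort-/- cells gave 0 of 49553043 reads, with an upper limit of 0.0744 RPM in the same kind of interval. These intervals and limits cover counting error only. With genotype labels permuted within each environment, the difference of -0.833 reads per library (-0.0673 RPM) gave p = 0.14 in an exact two-sided permutation test over the 10 libraries. All reads already lay in Cort+/+ libraries. In raw reads, 0.14 was the smallest p that the permutation test allows, so it could not pass. In RPM the smallest was 0.04. The upper limit in Cort-/- cells lay inside the interval of Cort+/+ cells, and the absence of reads is thus no check of the knockout labels at this depth.

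In the limma fits, the unadjusted p of Cort was 0.00723 for the genotype under NX/NG (adjusted p = 0.358), 0.0157 over both environments (adjusted p = 0.318) and 0.0446 for OGD-R in Cort+/+ cells (adjusted p = 0.881). No fold is given with at most 2 reads in a library, and nothing is concluded from these p-values either. Cort+/+ cells had 4 reads under NX/NG (0.108 RPM, exact Poisson interval 0.0293 to 0.276) and 1 after OGD-R (0.0269 RPM, 0.000681 to 0.150), and these intervals overlapped.

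The neighbours of Cort on chr4 are Cenps (chr4:149127121-149137629), which encodes a centromere and DNA repair protein, and Dffa (chr4:149104146-149120647), which encodes an inhibitor of the apoptotic nuclease. Neither shares exonic bases with another gene in the annotation. Dffa was 0.59 higher in Cort-/- cells over both environments on the log2(RPKM + 0.1) scale (SE 0.08, adjusted p = 0.0439, limma), with 5.54 ± 0.54 RPKM in Cort+/+ against 8.56 ± 0.81 in Cort-/- cells under NX/NG (SD, n = 3 and 2). This call was 1 of 26 among the 27321 genes tested over both environments (0.0952%). It was lost in 9 of the 10 fits that each left out 1 library (adjusted p of 0.0659 to 0.155) and was kept without Cort-/- OGD-R replicate 3 (adjusted p = 0.0229), while the difference stayed at 0.54 to 0.64. The call was also lost with the replicate number as a block (adjusted p = 0.0781) and with a pseudocount of 1 (adjusted p = 0.0581), both in limma. Cenps was 1.61 ± 0.19 RPKM in Cort+/+ and 1.61 ± 0.30 in Cort-/- cells under NX/NG, and 1.57 ± 0.082 and 2.71 ± 0.67 after OGD-R (adjusted p = 0.978 in OGD-R, limma). The unadjusted p of Cenps was under 0.05 in that limma fit, as for 3.42% of all genes. It was also under 0.05 in the limma test of whether the genotype difference changed with the environment, as for 2.86% of all genes.

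Among the ligands, only ghrelin mRNA exceeded 3 reads in every library, and Sst was not listed. Ghrl was 0.815 ± 0.34 RPKM in Cort+/+ and 0.625 ± 0.35 in Cort-/- cells under NX/NG, and 0.931 ± 0.37 and 0.763 ± 0.074 after OGD-R. The genotype difference over both environments was -0.27 on the log2 scale (SE 0.31, adjusted p = 0.824, limma). Mboat4, the acyltransferase that ghrelin needs to bind its receptor, had at most 2 reads in any library. Leap2, an antagonist of that receptor, had at most 3, and Mrap2, an accessory protein of it, had at most 2.

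Receptor reads fell almost wholly on Sstr4 and Sstr2. The receptors took 265 reads over the 10 libraries, between 20 and 41 per library, and 97.7% were on these 2 genes. Per length, the order over the libraries that list each gene was Sstr4 (0.703 ± 0.319 RPKM, SD, n = 10), Sstr2 (0.515 ± 0.305, n = 10), Cort (0.0605 ± 0.0855, n = 10), Sstr1 (0.0119 ± 0.0272, n = 10), Sstr3 (0.0109 ± 0.0156, n = 5) and Ghsr (0.00385 ± 0.0086, n = 5). Sstr4 and Sstr2 differed by less than their spread, as did the neighbours among the 4 lower genes, while the step from Sstr2 to Cort exceeded it. Under NX/NG, 50.3% of listed genes were lower than Sstr4 and 50.2% lower than Sstr2. After OGD-R these shares were 50.6% and 43.8%. No member had 20 reads in every library, so genes of similar pattern were not sought.

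In 3 of 4 Cort-/- libraries Sstr4 lay below every Cort+/+ library, but the genotype difference did not pass the threshold. This receptor gene is a single exon at chr2:148395344-148396767 on the plus strand. Under NX/NG, Cort+/+ replicates 1, 2 and 3 gave 1.09, 0.962 and 0.731 RPKM (19, 18 and 12 reads), and Cort-/- replicates 1 and 2 gave 0.341 and 0.221 RPKM (6 and 4 reads). The groups did not overlap, as for the 12.3% of genes given above.

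After OGD-R, Cort+/+ replicates 1, 2 and 3 gave 0.920, 0.759 and 0.940 RPKM of Sstr4 (18, 12 and 16 reads). Cort-/- replicate 1 gave 0.239 RPKM (4 reads), and replicate 3 gave 0.823 RPKM (16 reads). The genotypes thus overlapped through Cort-/- replicate 3, one of the libraries with little ribosomal RNA. Cort-/- replicate 1, with the low value, was the library with 37.0 RPKM of epithelial markers, against 8.81 in replicate 3. Whether either trait bears on Sstr4 was not tested.

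**Figure D2:**
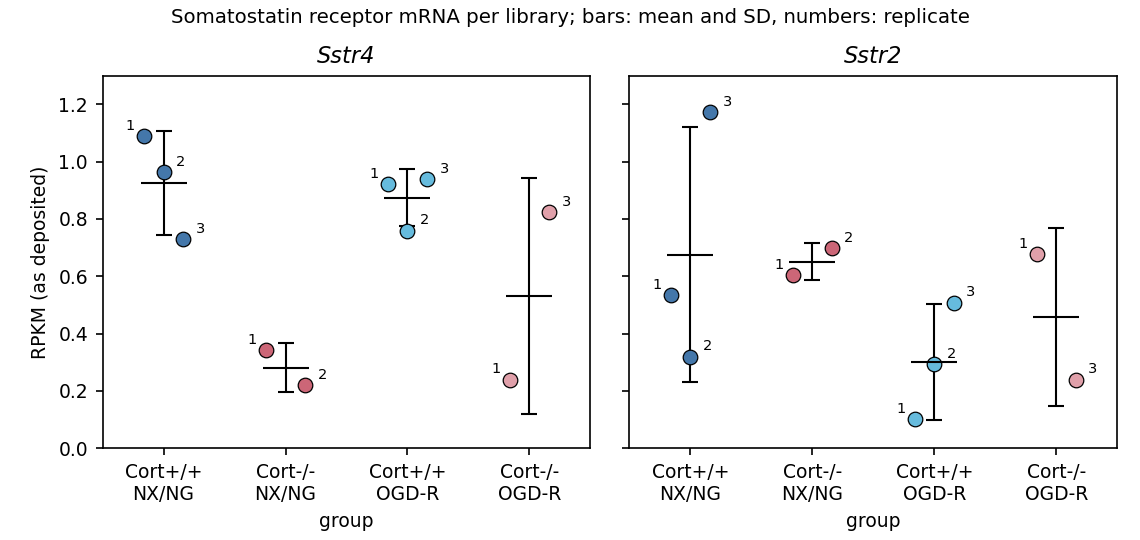
RPKM of Sstr4 (left) and Sstr2 (right) in each library by group, with points numbered by replicate and bars giving the mean and SD. Sstr4 lies at 0.221 to 0.341 RPKM in Cort-/- NX/NG cells and at 0.731 to 1.09 in Cort+/+ NX/NG cells, the Cort-/- OGD-R libraries split into 0.239 and 0.823, and Sstr2 overlaps between genotypes in both environments.

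On the log2(RPKM + 0.1) scale, the Sstr4 difference under NX/NG was -1.43 (SE 0.30, 95% interval -2.21 to -0.66, unadjusted p in the limma fit 0.00512, adjusted p = 0.324). In that fit 0 of 29965 genes passed an FDR of 0.05 (0%), 2513 (8.39%) had an unadjusted p under 0.05, and limma-voom on the recovered reads called 124. With limma-voom, the adjusted p of Sstr4 was 0.189. After OGD-R the difference was -0.79 (SE 0.49, 95% interval -2.02 to 0.43, adjusted p = 0.978, limma), where limma called 0 of 29775 genes (0%), 1019 (3.42%) had an unadjusted p under 0.05, and limma-voom called 5. It was -1.51 without Cort-/- replicate 3 (adjusted p = 0.215) and -0.070 without Cort-/- replicate 1 (adjusted p = 0.932). Over both environments it was -1.11 (SE 0.30, 95% interval -1.78 to -0.45, adjusted p = 0.215, limma).

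The Sstr4 result turned on 1 library. Without Cort-/- OGD-R replicate 3, the difference over both environments was -1.46 (SE 0.20, adjusted p = 0.0296, limma), and the calls among all genes rose from 26 to 182. Leaving out any other single library gave -1.18 to -0.91 and no call. Leaving out both libraries low in ribosomal RNA, Cort-/- OGD-R replicate 3 among them, also gave no call of Sstr4. An exact permutation test within environments, added after the data were seen, gave a difference of -0.494 RPKM for Sstr4 (0.406 against 0.900, two-sided p = 0.02, smallest p of 0.01, n = 10 libraries) and 0.0662 RPKM for Sstr2 (p = 0.75). Cort, Sstr2 and Sstr4 were the 3 genes tested in this way, with p-values unadjusted.

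**Figure D3:**
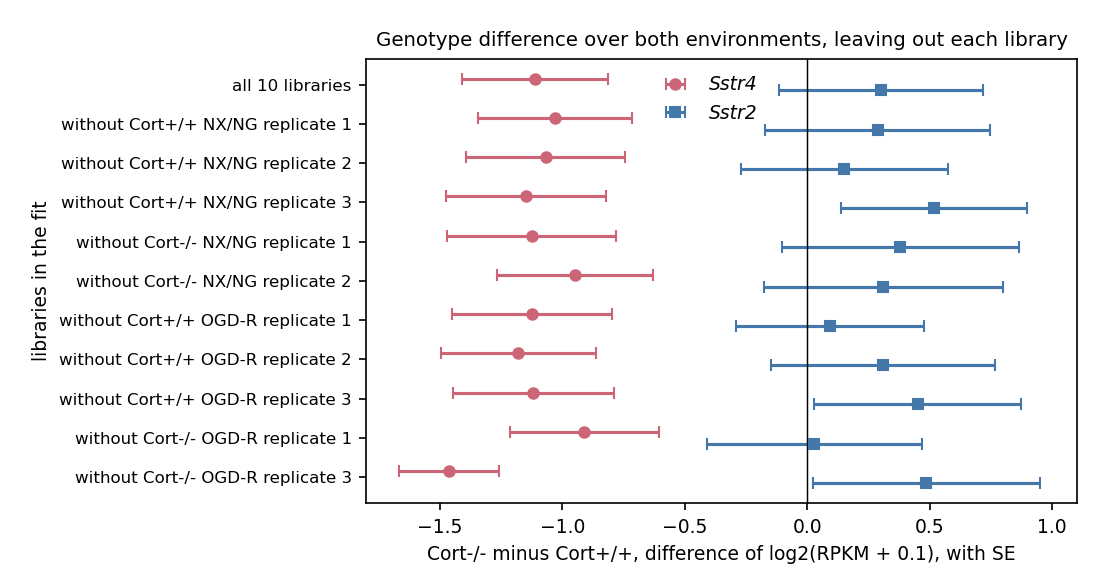
Difference between Cort-/- and Cort+/+ cells over both environments in log2(RPKM + 0.1), with its SE, for all 10 libraries and leaving out each one. Sstr4 stays below 0 in every fit and is farthest from it, at -1.46, without Cort-/- OGD-R replicate 3, whereas Sstr2 lies between 0.03 and 0.52.

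Under NX/NG, the pericyte marker Cspg4 was lower in both Cort-/- libraries than in all Cort+/+ libraries. The same held for Sstr4 and for 12.3% of all genes. Within a genotype, Cspg4 did not follow Sstr4. Cort+/+ replicates 1, 2 and 3 gave 3.55, 4.08 and 4.13 RPKM of Cspg4, against 1.09, 0.962 and 0.731 of Sstr4. Cort-/- replicates 1 and 2 gave 0.679 and 1.36 RPKM of Cspg4, against 0.341 and 0.221 of Sstr4. The 3 pericyte markers summed to 3.83 to 4.41 RPKM in Cort+/+ and to 0.958 to 1.51 RPKM in Cort-/- libraries under NX/NG, of which Cspg4 gave 3.55 to 4.13 and 0.679 to 1.36 RPKM. Kcnj8 had at most 1 read in any library. Vtn overlapped between the genotypes under NX/NG, at 0.128 to 0.300 RPKM in Cort+/+ and 0.116 to 0.279 in Cort-/- libraries. Its values after OGD-R were 0.247 to 0.574 RPKM in Cort+/+ libraries, and 0.0840 and 0.108 in Cort-/- replicates 1 and 3. After OGD-R the sum was 4.95 to 5.59 RPKM in Cort+/+ libraries, 3.78 RPKM in Cort-/- replicate 1, where Sstr4 was low, and 4.83 RPKM in replicate 3. The part of pericytes in the Sstr4 values was not tested. In bulk RNA, fewer cells of a type and less RNA per cell cannot be told apart.

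Sstr2, the receptor on which most clinical somatostatin analogs act, varied more between replicates than between genotypes. It lies at chr11:113619342-113626028 on the plus strand. Under NX/NG, Cort+/+ replicates 1, 2 and 3 gave 0.533, 0.320 and 1.17 RPKM (14, 9 and 29 reads), and Cort-/- replicates 1 and 2 gave 0.605 and 0.698 RPKM (16 and 19 reads). The Cort-/- values lay inside the Cort+/+ range. The lowest and highest counts of the Cort+/+ replicates, 9 and 29, had exact Poisson intervals of 4.12 to 17.1 and 19.4 to 41.6 reads.

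After OGD-R, Cort+/+ replicates 1, 2 and 3 gave 0.102, 0.294 and 0.508 RPKM of Sstr2 (3, 7 and 13 reads), and Cort-/- replicates 1 and 3 gave 0.676 and 0.239 RPKM (17 and 7 reads). The lowest value was in Cort+/+ replicate 1, the other library with little ribosomal RNA, and the genotypes overlapped. The genotype difference was 0.11 (SE 0.52, 95% interval -1.22 to 1.44, adjusted p = 0.943) under NX/NG, 0.49 (SE 0.64, 95% interval -1.11 to 2.10, adjusted p = 0.978) after OGD-R and 0.30 (SE 0.42, 95% interval -0.63 to 1.23, adjusted p = 0.865) over both, all by limma. The intervals leave room for a change of over 1 log2 unit in either direction within an environment.

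Relative to each other, Sstr4 exceeded Sstr2 in RPKM in 5 of 6 Cort+/+ libraries and in 1 of 4 Cort-/- libraries. The exceptions were Cort+/+ NX/NG replicate 3, at a ratio of 0.623, and Cort-/- OGD-R replicate 3, at 3.44. The ratio itself ranged from 0.317 in Cort-/- NX/NG replicate 2 to 9.03 in Cort+/+ OGD-R replicate 1, and rested on as few as 3 reads.

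The response of the receptors to OGD-R was examined within each genotype on a joint scale. Sstr2 was 0.99 lower in Cort+/+ cells after OGD-R than under NX/NG (difference -0.99, SE 0.57, 95% interval -2.36 to 0.38, adjusted p = 0.930, limma) and differed by -0.61 in Cort-/- cells (SE 0.51, adjusted p = 0.922). Leaving out 1 library moved these to between -1.36 (without Cort+/+ NX/NG replicate 2) and -0.55 (without Cort+/+ NX/NG replicate 3), and to between -1.21 (without Cort-/- OGD-R replicate 1) and -0.018 (without Cort-/- OGD-R replicate 3), with no call. The ranges overlapped in both genotypes. Sstr4 differed by -0.13 in Cort+/+ cells (SE 0.23, 95% interval -0.68 to 0.41, adjusted p = 0.969) and by 0.51 in Cort-/- cells (SE 0.61, adjusted p = 0.939). No receptor passed, against 9 of 27075 genes (0.0332%) called in Cort+/+ cells, where 5.48% had an unadjusted p under 0.05, and 0 of 26523 (0%) in Cort-/- cells, where 1082 (4.08%) had an unadjusted p under 0.05 and limma-voom called 0.

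The test of whether the genotype difference changed with the environment passed for neither receptor. The interaction was 0.65 for Sstr4 (SE 0.59, 95% interval -0.70 to 1.99) and 0.38 for Sstr2 (SE 0.87, 95% interval -1.61 to 2.37), with adjusted p = 1.00 for both in limma. Of 27321 genes, 3 were called in this test (0.011%) and 2.86% had an unadjusted p under 0.05.

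**Figure D4:**
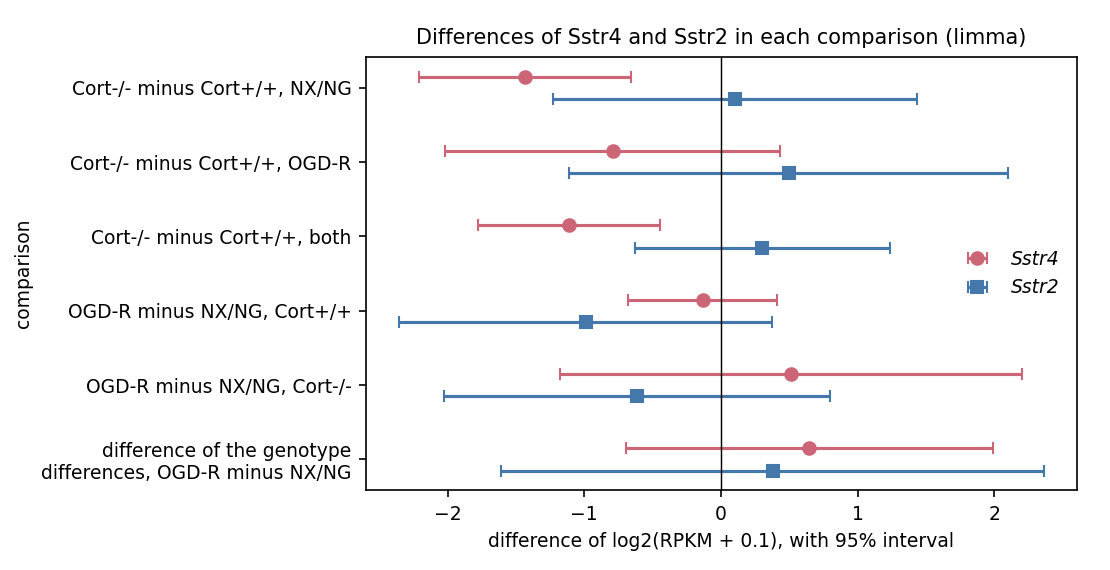
Differences of log2(RPKM + 0.1) for Sstr4 (circles) and Sstr2 (squares) in 6 comparisons, with 95% intervals from limma. The Sstr4 intervals for the genotype difference under NX/NG (-2.21 to -0.66) and over both environments (-1.78 to -0.45) leave out 0 before adjustment for the number of genes, and all other intervals include it.

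The other receptors were at or near 0 reads, so no fold is given. Sstr1, at chr12:58211772-58214444, had 1 read in Cort+/+ NX/NG replicate 2 and 2 reads in Cort+/+ OGD-R replicate 3. Sstr3, at chr15:78537008-78544685, had 2 and 1 reads in Cort+/+ OGD-R replicates 1 and 2 and 0 in the other 3 OGD-R libraries. Ghsr, at chr3:27371351-27378010, had 1 read, in Cort-/- OGD-R replicate 1. The reads of Sstr1 and Sstr3 were in Cort+/+ libraries only. Yet Cort-/- cells at 0 reads of Sstr1 had an exact Poisson upper limit of 0.0744 RPM against 0.0404 (0.00832 to 0.118) in Cort+/+ cells. For Sstr3 after OGD-R, the limit in Cort-/- cells was 0.149 RPM against 0.0807 (0.0166 to 0.236) in Cort+/+ cells. A genotype difference in either was therefore not detectable at this depth. Of the members, only Sstr3 and Sstr5 shared stretches of 40 bases with another gene, 2 of 4279 in Sstr3, and these they shared with each other.

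Enzymes that cut and trim neuropeptide precursors were listed in full, with 5 of 10 at a mean of at least 1 RPKM in each environment. Cpe, the carboxypeptidase that finishes most neuropeptides, was 378 ± 28 RPKM in Cort+/+ and 318 ± 26 in Cort-/- cells under NX/NG. Furin, a convertase of the secretory pathway, was 19.9 ± 1.0 and 19.7 ± 1.8 RPKM. Over both environments 1 of 10 genes had an unadjusted p under 0.05, beside 11.1% of all genes. It was the carboxypeptidase Cpd at 0.18 (SE 0.07, adjusted p = 0.387, limma), and the median difference was -0.00011 beside -0.0053 over all genes.

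Of 8 peptide-degrading enzymes, 3 had an unadjusted p under 0.05 over both environments, where 11.1% of all genes did, and 0 were called by limma. Ece1, an endothelin-converting enzyme, was 148 ± 12 RPKM in Cort+/+ and 188 ± 15 in Cort-/- cells under NX/NG, and 174 ± 15 and 208 ± 36 after OGD-R (0.30 over both, SE 0.09, adjusted p = 0.271). Mme, the neprilysin that degrades somatostatin, was 0.752 ± 0.25 and 0.355 ± 0.066 RPKM under NX/NG, and 0.822 ± 0.24 and 0.486 ± 0.0496 after OGD-R (-0.75 over both, SE 0.22, adjusted p = 0.261). The members pointed both ways, with 1 higher and 2 lower, and the third was Ece2 (-0.61, SE 0.19, adjusted p = 0.280). The median difference was 0.01.

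Some signalling genes below the receptors, Gnai2 among them, were far more abundant than the receptors, and others were not. Under NX/NG, Gnaz and Adcy8 had means of 0.255 and 0.0677 RPKM, below Sstr4 at 0.669. Gnai2, an inhibitory G protein subunit, was 217 ± 16 RPKM in Cort+/+ and 247 ± 13 in Cort-/- cells under NX/NG. Of 9 G protein alpha subunits, 4 had an unadjusted p under 0.05 over both environments, beside 11.1% of all genes, and 0 were called: Gnai1 (0.32, SE 0.13, adjusted p = 0.393) and Gnai2 (0.17, SE 0.07, adjusted p = 0.436) were nominally higher, and Gnai3 (-0.12, SE 0.05, adjusted p = 0.435) and Gnao1 (-0.62, SE 0.20, adjusted p = 0.278) nominally lower in the limma fit. Gnao1, a subunit typical of neurons, was 1.83 ± 0.43 and 0.911 ± 0.0695 RPKM under NX/NG.

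Of 10 adenylate cyclases, which make the cyclic AMP that these receptors lower, 3 had an unadjusted p under 0.05 over both environments, beside 11.1% of all genes, and 0 were called. Adcy4, the most abundant, was 25.4 ± 1.0 RPKM in Cort+/+ and 29.1 ± 1.8 in Cort-/- cells after OGD-R (0.29 over both environments, SE 0.08, adjusted p = 0.219, limma). Adcy6 was 16.7 ± 1.6 and 13.5 ± 0.36 RPKM under NX/NG (-0.21 over both, SE 0.07, adjusted p = 0.331), and Adcy2, at 0.896 ± 0.38 and 0.437 ± 0.14 RPKM under NX/NG, was the third (-0.70, SE 0.27, adjusted p = 0.390).

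GIRK channels, the potassium channels that the receptors open in neurons, were barely read: 1 of 4 was listed in each environment, Kcnj6 under NX/NG and Kcnj9 after OGD-R, with at most 1 read in a library. Ptpn11, a tyrosine phosphatase tied to somatostatin receptor signalling, was 31.3 ± 1.5 RPKM in Cort+/+ and 30.9 ± 1.5 in Cort-/- cells under NX/NG, and Ptpn6, its relative in blood cells, was 0.095 ± 0.058 and 0.0425 ± 0.019. Over both environments, 11.1% of all genes had an unadjusted p under 0.05 in limma. None of the 3 phosphatases and none of the 6 listed receptor kinases and arrestins had such a p. Under NX/NG, 1 of these 6 kinases and arrestins did (Grk2), beside 8.39% of all genes. Grk2, a kinase that desensitises such receptors, was 19.1 ± 0.33 and 21.2 ± 0.47 RPKM under NX/NG (0.15, SE 0.05, adjusted p = 0.477, limma).

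Receptors of other vasoactive peptides gave a measure of what these cultures express. Of 21, 5 had a mean of at least 1 RPKM in each environment and 2 had an unadjusted p under 0.05 over both environments, a share near the 11.1% of all genes. Npr3, the clearance receptor of natriuretic peptides, was 8.07 ± 2.7 RPKM in Cort+/+ and 4.55 ± 0.27 in Cort-/- cells under NX/NG, and 7.08 ± 0.61 and 4.90 ± 0.31 after OGD-R (-0.63 over both, SE 0.17, adjusted p = 0.222, limma). Bdkrb2, a bradykinin receptor, was 0.928 ± 0.26 and 0.528 ± 0.16 RPKM under NX/NG (-0.75 over both, SE 0.27, adjusted p = 0.350).

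Across the ligands, receptors, processing and degrading enzymes and signalling genes, 65 in all, 0 of the 54 tested over both environments were called. Of these 54, 5 were nominally higher and 8 nominally lower in Cort-/- cells. These were larger shares than among all genes, of which 5.21% were nominally higher and 5.89% nominally lower. Their median difference was -0.02, beside -0.01 over all 27321 genes. Under NX/NG, 5 were nominally higher and 5 lower of 55 tested, whereas among all genes 3.56% were higher and 4.82% lower. After OGD-R, 0 of 57 had an unadjusted p under 0.05, against 3.42% of all genes.

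**Figure D5:**
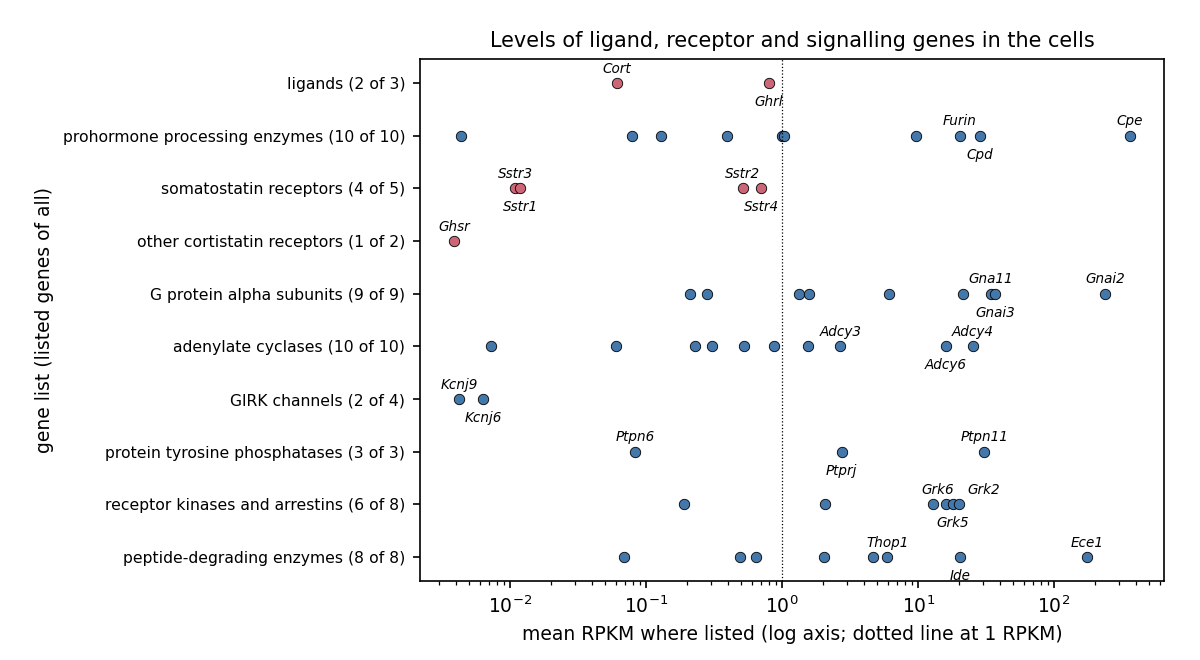
Mean RPKM on a log axis of each listed gene, by list, with the ligands and receptors in red and the genes of highest level in each list named. Cort and the receptors lie below 1 RPKM, whereas Gnai2, Ece1 and Cpe lie above 100.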

How the data were processed

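RNA of 12 labelled samples was measured by RNA-seq, and 10 had a column in the tables used here. The reanalyzerGSE pipeline of the authors was run so that low genes were retained. The submitters' processing notes name edgeR, and the aligner, genome build and annotation are not given in the sources used here. The RPKM values were deposited by the authors with each environment scaled on its own. Columns with the authors' own fold changes, p-values, FDR and categories were not used, nor were their lists of differentially expressed genes. The labels and the study's methods differ in kit, RNA input and read length, and where a replicate is a pool of mice, p-values measure the spread between pools.

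Reads were recovered as RPKM times length over 1 step per library. Each comparison was fitted with limma 3.58.1 (R 4.3.3; trend) on log2(RPKM + 0.1), which understates changes of low genes, over all genes with a read, with Benjamini-Hochberg adjustment and a limit of 0.05. Comparisons across environments used the 27321 genes in both tables, scaled jointly by the trimmed mean of M values. All libraries with a column in the groups compared entered, with environment as a term over both. No fold is given where neither group exceeded 3 reads in a library. The fits were tested on simulated data, in which limma called more unchanged genes than limma-voom in every comparison and missed more changed ones. Gene positions are from GENCODE M21 (GRCm38), whose exonic lengths equalled the tables' for 6 of 6 listed members.

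The members and the gene lists were chosen with earlier results of these data known. Named genes were the members and, per list, up to 3 of highest mean RPKM and up to 2 of lowest p in each genotype comparison. Alternatives were pseudocount 1, a filter of 1 RPKM in 2 libraries, quantile normalization, limma-voom, the replicate number as a block, all groups in one fit and leaving out each library. Fits without the 2 libraries low in ribosomal RNA and the permutation tests of Sstr2 and Sstr4 were added after seeing the data.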

Additional observations from a re-analysis of the deposited data

How the results depend on the processing

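The numbers of genes called at an FDR of 0.05 depended on the setting, except for OGD-R in Cort-/- cells. For the genotype under NX/NG, 0 calls became 20 with pseudocount 1, 124 with limma-voom, 4 with all groups in one fit and 0 to 683 leaving out each library. For the genotype after OGD-R, 0 became 5 with limma-voom, 7 with all groups in one fit and 0 to 710 leaving out each library. The highest of these came with a lone Cort-/- library, assumed to vary like the other group. For OGD-R in Cort+/+ cells, 9 became 5 with pseudocount 1, 0 with the 1 RPKM filter, 1 with limma-voom and 0 to 0 leaving out each library. For the interaction, 3 became 0 with pseudocount 1, the filter, limma-voom or without the 2 libraries low in ribosomal RNA, and 0 to 8 leaving out each library. For the genotype over both environments, 26 became 16 with pseudocount 1, 211 with limma-voom, 76 without the 2 libraries low in ribosomal RNA and 10 to 182 leaving out each library. The causes were not tested. OGD-R in Cort-/- cells kept 0 calls in all 8 settings.

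Correlations (r) of the deviations of same-numbered samples were -0.039 and -0.041 under NX/NG and -0.39 and -0.26 after OGD-R. Across environments they were -0.061 to 0.11 in Cort+/+ cells and -0.13 in Cort-/- cells. With 2 or 3 libraries per group, these r cannot tell whether same-numbered cultures shared a pool of mice. The main fits treated all libraries as separate, which was not tested. With the replicate number as a block, 0 genes were called under NX/NG, 0 after OGD-R, 0 for OGD-R in Cort+/+ cells, 0 for the interaction and 8 for the genotype over both environments. In Cort-/- cells no such fit was possible, since the environments share 1 number.

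Of the members, 6 were detected by 1 read, 2 by more than 3 reads, 3 at 0.1 RPKM, 2 at 1 RPKM, 2 by a read in every library and 5 to 6 leaving out each library. Ghsr was the gene lost, without Cort-/- OGD-R replicate 1. The Cort difference was -0.0740 to -0.0538 RPM leaving out each library, reaching the limit (exact permutation p = 0.05) without Cort+/+ OGD-R replicate 1 or 2, which had 0 reads, where 0.05 is also the smallest p of that design, and -0.833 in raw reads per library. Sstr4 stayed lower in Cort-/- cells in all 10 settings of each environment. With pseudocount 1 it was -0.59 under NX/NG and -0.45 over both environments, and without Cort-/- OGD-R replicate 1 it was -0.070 after OGD-R, against -1.51 without replicate 3. Leaving out each library, the Sstr4 change with OGD-R in Cort-/- cells ran from -0.21 to 1.23 and its interaction from -0.073 to 1.36, both lowest without Cort-/- OGD-R replicate 3, and the interaction was -0.036 without both libraries low in ribosomal RNA. Leaving out each library, Sstr2 ran from -0.26 (without Cort+/+ replicate 2) to 0.54 under NX/NG and from -0.10 (without Cort-/- replicate 1) to 1.09 after OGD-R. Its interaction ran from -0.21 to 0.97 and was below 0 also without Cort+/+ NX/NG replicate 3 (-0.058) or Cort+/+ OGD-R replicate 1 (-0.043). The receptors were not tested under the 1 RPKM filter, which they did not pass. With 3 to 29 reads per library on each, depth limits every statement on them.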
